A study of Homo sapiens with 5 samples.

Results

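The E2F and DP family genes were examined as targets of transcription factor binding in LM2 cells, which descend from the breast cancer cell line MDA-MB-231 and were selected in mice for spread to the lung. The family was taken as 10 genes by name, E2F1 to E2F8, TFDP1 and TFDP2, out of 20098 protein-coding genes annotated on chromosomes 1 to 22 and X. These cells were used for ChIP-Seq of Fra-1 (the AP-1 subunit encoded by FOSL1), MYC and E2F1, with 1 library per factor and 1 input DNA library as the control for all 3. The labels call the cells untreated, whereas a supplement of the study refers to blots of control-vector and shRNA lysates made for the ChIP-Seq. Peak lists hold no expression values by which the identity of the line could be checked. Since no factor had a replicate, no test between factors was possible. Intervals given below cover only the counting error of the ChIP fragments, with the input background taken as fixed. A peak was placed in a promoter when it overlapped the window from 2 kb upstream to 2.5 kb downstream of any transcription start site (TSS) of the gene by at least 1 bp, and the gene body with 10 kb on each side was searched as well. In these regions, 43 E2F1, 6 MYC and 5 Fra-1 peaks were called.

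E2F proteins bind DNA as partners of DP proteins, which TFDP1 and TFDP2 encode, and control genes needed for DNA replication and cell division. E2F1, E2F2 and E2F3 are known mainly as activators. E2F4 and E2F5 work mainly as repressors together with pocket proteins of the RB family, E2F6 represses without pocket proteins, and E2F7 and E2F8 are atypical repressors that bind DNA without a DP partner. Several E2F genes are textbook E2F targets themselves, so that the family can regulate its own members. In what follows, "E2F1 peak" means a peak of the E2F1 ChIP library at whichever gene is named.

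The sequences just upstream of the start sites are shown first, since E2F motifs were found there in part of the family. Letters TTTCCCGC, TTTCGCGC, TTTGCCGC or TTTGGCGC, read on either strand, were taken as the E2F motif. Stretches of 210 bases that end at the base before the canonical TSS are given for 4 members that hold the motif (178 bases for TFDP1, which stop before the first start site annotated for the gene), 5′ to 3′ on the strand of the gene (GRCh37), with the motif in capitals. They lie at chr20:32274192-32274401 (minus strand) for E2F1, chr1:23857726-23857935 (minus) for E2F2, chr6:20401900-20402109 (plus) for E2F3 and chr13:114238858-114239035 (plus) for TFDP1.
E2F1: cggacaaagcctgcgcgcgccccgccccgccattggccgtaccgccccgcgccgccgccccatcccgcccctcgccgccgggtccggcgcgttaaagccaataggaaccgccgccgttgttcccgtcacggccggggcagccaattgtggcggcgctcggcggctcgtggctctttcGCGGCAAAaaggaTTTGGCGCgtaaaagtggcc
E2F2: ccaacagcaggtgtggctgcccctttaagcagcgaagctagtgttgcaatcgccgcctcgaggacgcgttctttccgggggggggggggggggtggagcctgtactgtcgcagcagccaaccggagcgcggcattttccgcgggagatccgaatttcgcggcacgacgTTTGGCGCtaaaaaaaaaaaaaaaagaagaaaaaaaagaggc
E2F3: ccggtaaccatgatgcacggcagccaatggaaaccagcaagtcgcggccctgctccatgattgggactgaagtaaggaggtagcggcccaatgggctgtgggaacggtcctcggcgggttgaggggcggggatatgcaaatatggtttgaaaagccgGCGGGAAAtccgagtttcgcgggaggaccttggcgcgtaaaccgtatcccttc
TFDP1: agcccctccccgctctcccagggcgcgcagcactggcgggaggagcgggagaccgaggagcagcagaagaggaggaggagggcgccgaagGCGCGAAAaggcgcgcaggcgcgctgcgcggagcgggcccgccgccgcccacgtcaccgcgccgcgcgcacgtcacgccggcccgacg
Of these 4, the E2F1 gene was the one with a pair of motifs in this stretch, at 33 to 26 and 20 to 13 bases before the TSS. In E2F2 the motif began 42 bases before the TSS, in E2F3 53 bases and in TFDP1 120 bases before it.

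In the 300 bases from 250 upstream to 50 downstream of the canonical TSS, 6 of 10 members held the E2F motif. Among 19819 protein-coding genes with a canonical TSS, 868 (4.38%) held it. The other members with a motif were E2F8 and E2F5, and in E2F5 it began 192 bases before the TSS. E2F4, E2F6, E2F7 and TFDP2 had no such letters in this window. The E-box CACGTG and the AP-1 motif (TGACTCA or TGAGTCA) were in 0 of the 10 windows, against 8.76% and 3.57% of all these promoters. Across all genes with a canonical TSS, the E2F motif was in 5.67% of 12293 promoters of genes with an E2F1 promoter peak and in 2.27% of the 7526 others.

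For each peak the lists give the pileup (the number of overlapping ChIP fragments at the summit, its highest point, scaled down to the depth of the input by a factor of 0.596 for E2F1, 0.451 for MYC and 0.832 for Fra-1 and written as a whole number), the fold enrichment of that pileup over the local input background, and a −log10 q, where q is the p-value of the peak corrected for the number of positions tested. The strength of a peak means its fold enrichment, and the canonical TSS is that of the representative transcript in the annotation. E2F1 peaks were called in the promoters of all 10 members, whereas 61.3% of protein-coding genes had an E2F1 promoter peak. In 6 members the promoter held E2F1 without MYC or Fra-1 (35.8% of coding genes), and in 4 E2F1 with MYC and without Fra-1 (13.1%). Within the gene body and 10 kb flanks the E2F1 count was also 10 members, against 71.9% of coding genes. The 10 windows held 31 E2F1 peaks, with a median of 3 for each member against 2 for the coding genes that had any (interquartile range 1 to 3). At each member the summit of the strongest promoter peak lay within 300 bp of the canonical TSS, which held for 64.2% of coding genes with an E2F1 promoter peak. The count depends on how many peaks are admitted. When each list was reduced to its 4867 strongest peaks by −log10 q, 3 members (E2F1, E2F3 and E2F8) kept an E2F1 promoter peak, against 25.7% of coding genes.

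**Figure D1:**
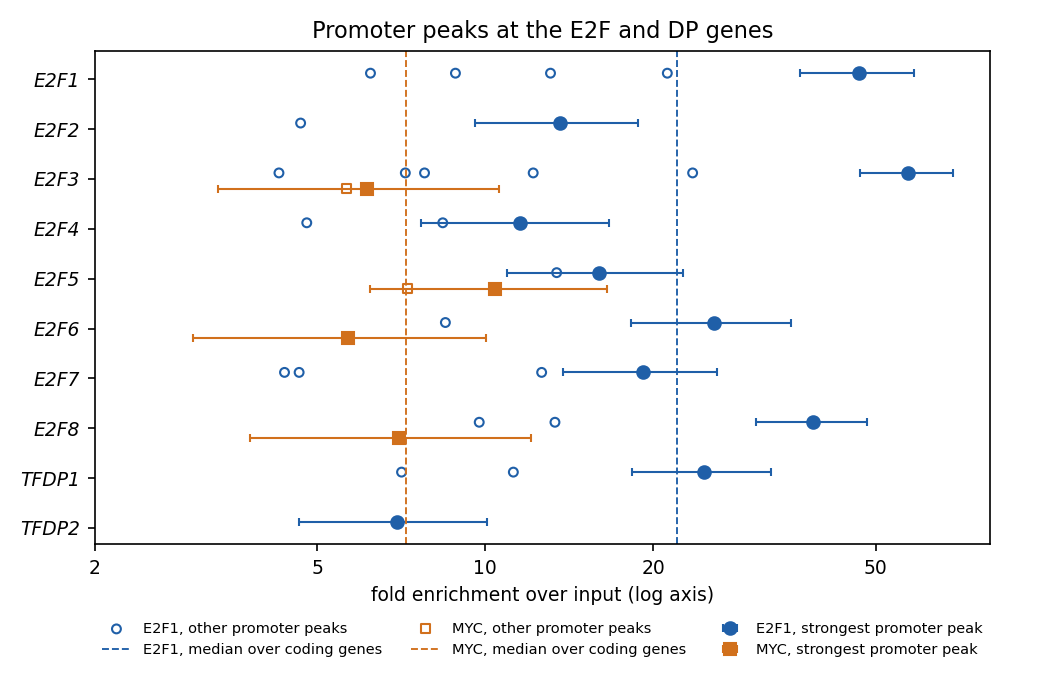
Fold enrichment over input, on a log axis, of every E2F1 (blue circles) and MYC (orange squares) promoter peak at the 10 genes. Filled symbols are the strongest peak with its 95% Poisson interval from the pileup, open symbols are other promoter peaks, and dashed lines are the medians of the strongest peak over coding genes with a promoter peak (22.02 for E2F1 and 7.22 for MYC). E2F3, E2F1 and E2F8 stand to the right, TFDP2 to the left, and only 4 genes carry an orange symbol.

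Among the activators, E2F3 and E2F1 carried the strongest E2F1 peaks of the family and E2F2 a weaker one. E2F3 (chromosome 6 from 20402110 to 20493945, plus strand) had 6 E2F1 peaks in its promoter windows. The strongest, 1478 bp long, had its summit 19 bp downstream of the TSS in the untranslated part of exon 1, with a pileup of 108 fragments, a fold enrichment of 57.0 (95% Poisson interval 46.9 to 68.7) and a −log10 q of 175. It ranked above the strongest promoter peak of 97.5% of coding genes with an E2F1 promoter peak. This peak and some of the others at E2F3 also lay in a promoter window of another annotated gene that is not protein-coding. The E2F1 gene (chromosome 20 from 32263283 to 32274191, minus strand) had 5 promoter peaks. Its strongest had the summit 25 bp upstream of the TSS, a pileup of 72 and a fold enrichment of 46.6 (36.6 to 58.5), above 92.9% of those genes. This summit lay between the paired motifs shown above, whose centres were 4.5 and 8.5 bp away. A second upstream peak of 21.2 had its summit 416 bp before the TSS. The other 3 were in intron 1 with 6.23, 8.84 and 13.1. E2F2 (chromosome 1 from 23832930 to 23857725, minus strand) had a summit 11 bp upstream of the TSS, with a pileup of 35 and a fold enrichment of 13.6 (9.58 to 18.8), above 25.6% of those genes. Its interval did not reach those of E2F1 and E2F3. A weak peak of 4.67 lay in coding exon 1 of E2F2.

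The pocket-protein partners E2F4 and E2F5 had strongest peaks below the median of coding genes, above 19.6% and 32.7% of those with an E2F1 promoter peak. E2F4 (chromosome 16 from 67226058 to 67232821, plus strand) had 3 promoter peaks, of which the strongest reached a fold enrichment of 11.5 (7.67 to 16.7) from a pileup of 26, 57 bp upstream of the TSS. This peak also lay in a promoter window of EXOC3L1. The other 2 were in coding exons 1 and 2, with 8.39 and 4.79, and the latter had a scaled pileup of 5. E2F5 (chromosome 8 from 86089389 to 86129387, plus strand) had a peak of 16.0 (11.0 to 22.6) with its summit 162 bp upstream of the TSS and another of 13.4 in intron 1. Its E2F motif was centred 26.5 bp from the upstream summit. Both E2F5 peaks also lay in promoter windows of E2F5-DT and of another annotated gene that is not protein-coding.

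The repressors E2F6, E2F7 and E2F8 had different strengths. E2F8 (chromosome 11 from 19245610 to 19263167, minus strand) had the highest of them, with an interval that overlapped that of E2F6. Its main peak had a summit 140 bp upstream of the canonical TSS, a pileup of 76, a fold enrichment of 38.6 (30.5 to 48.2) and a rank above 85.3% of coding genes with an E2F1 promoter peak. E2F6 (chromosome 2 from 11584501 to 11606303, minus strand) had a summit 86 bp downstream of the canonical TSS in the untranslated part of exon 1, with a pileup of 36 and a fold enrichment of 25.7 (18.2 to 35.3). E2F7 (chromosome 12 from 77415028 to 77459349, minus strand) had a summit in intron 1, 266 bp downstream of the TSS, with a pileup of 39 and a fold enrichment of 19.2 (13.76 to 26.02). This was the largest distance from the TSS among the 10 strongest peaks. A neighbouring E2F7 peak, 527 bp upstream, had the higher pileup of 49 but a fold enrichment of 12.6, over a local input background of 2.96 to 3.04 scaled fragments against 1.09 to 1.14 at the intron peak. The ranges arise because the pileup appears to be rounded down.

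Of the DP genes, TFDP1 had the stronger promoter peak and TFDP2 the weakest of the family. TFDP1 (chromosome 13 from 114239036 to 114295788, plus strand) had a summit 189 bp upstream of the canonical TSS, a pileup of 48 and a fold enrichment of 24.6 (18.3 to 32.5), and 2 further promoter peaks of 11.2 and 7.08. TFDP2 (chromosome 3 from 141663270 to 141868386, minus strand) had 1 promoter peak, 18 bp downstream of the TSS in the untranslated part of exon 1, with a pileup of 26 and a fold enrichment of 6.95 (4.63 to 10.1), above 5.99% of coding genes with an E2F1 promoter peak. E2F4 had the same pileup of 26 and a fold enrichment of 11.5, since the local input background was 1.34 to 1.43 scaled fragments there and 2.88 to 3.03 at TFDP2. Among the 31 E2F1 promoter peaks of the family, 5 had a local background above 2.5, namely 3 at E2F7, 1 at E2F3 and the TFDP2 peak. Over all E2F1 promoter peaks this share was 10.9%, and the median background was 0.975 to 1.05. The part of background in the low value at TFDP2 was not tested.

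Placed in order, the strongest E2F1 peaks ran from E2F3, E2F1 and E2F8 through E2F6, TFDP1, E2F7, E2F5, E2F2 and E2F4 to TFDP2. All 9 neighbouring pairs in this order had overlapping Poisson intervals, whereas the intervals of E2F3 and E2F1 lay above those of 7 other members, E2F8 being the exception. Because the pileup is scaled down, these intervals are wider than the sequenced fragments alone would give. The median of the 10 strongest peaks was a fold enrichment of 21.9, against 22.02 over the 12321 coding genes with an E2F1 promoter peak, and 5 of 10 members lay above that median. The 6 members with an E2F motif near the TSS ranged from 13.6 to 57.0, with 4 above the median of coding genes, and the 4 members without it from 6.95 to 25.7, with 1 above. For all coding genes with an E2F1 promoter peak, the medians were 26.7 with the motif and 21.8 without it.

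**Figure D2:**
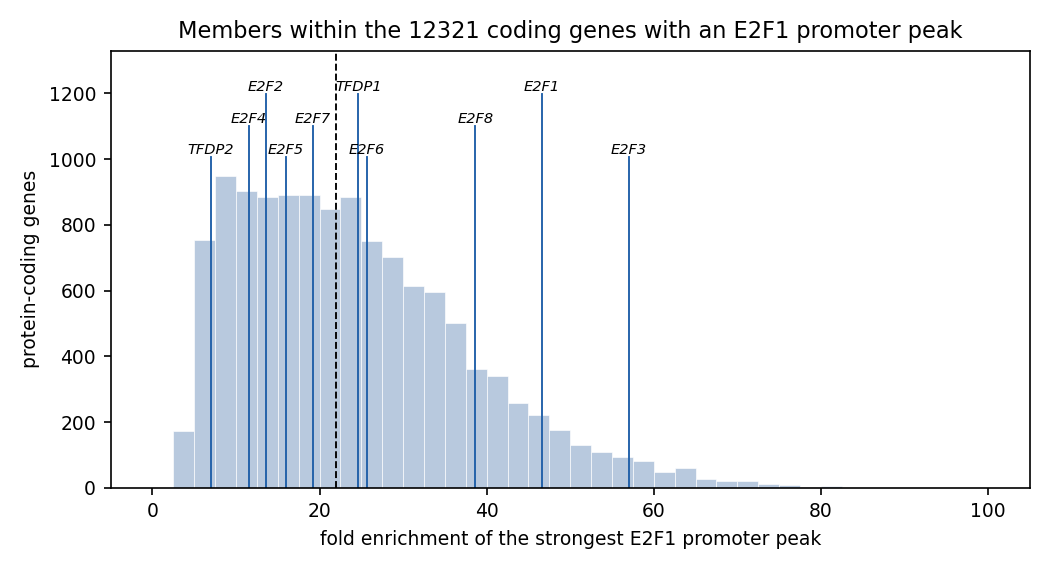
Histogram of the fold enrichment of the strongest E2F1 promoter peak over 12321 protein-coding genes (bars, number of genes), with the median of 22.02 as a dashed line and the 10 family members as labelled lines. The members spread over the whole distribution, from TFDP2 at 6.95 to E2F3 at 57.0, with 5 on each side of the median.

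Most members have several annotated start sites, and E2F1 peaks were found at the canonical ones. Start sites less than 1 kb apart were joined, which gave 10 groups with a canonical TSS and 21 others in 9 members. An E2F1 peak lay within 1 kb of all 10 canonical groups and of 1 of the 21 others. The exception was the internal start of E2F3 at 20403910, 1800 bp downstream of the canonical one, from which the shorter E2F3b protein is made. Peaks with summits 758 and 181 bp before and 229 and 745 bp after this start had a fold enrichment of 23.5, 7.78, 12.2 and 4.27. TFDP2 had 10 other groups, 1 of them with 7 start sites 120387 bp downstream of the canonical TSS, and no peak of any of the 3 factors lay within 1 kb of them. In E2F8, start sites upstream of the canonical one had a peak of their own, with the summit 61 bp downstream of the nearest of them and a fold enrichment of 13.3.

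**Figure D3:**
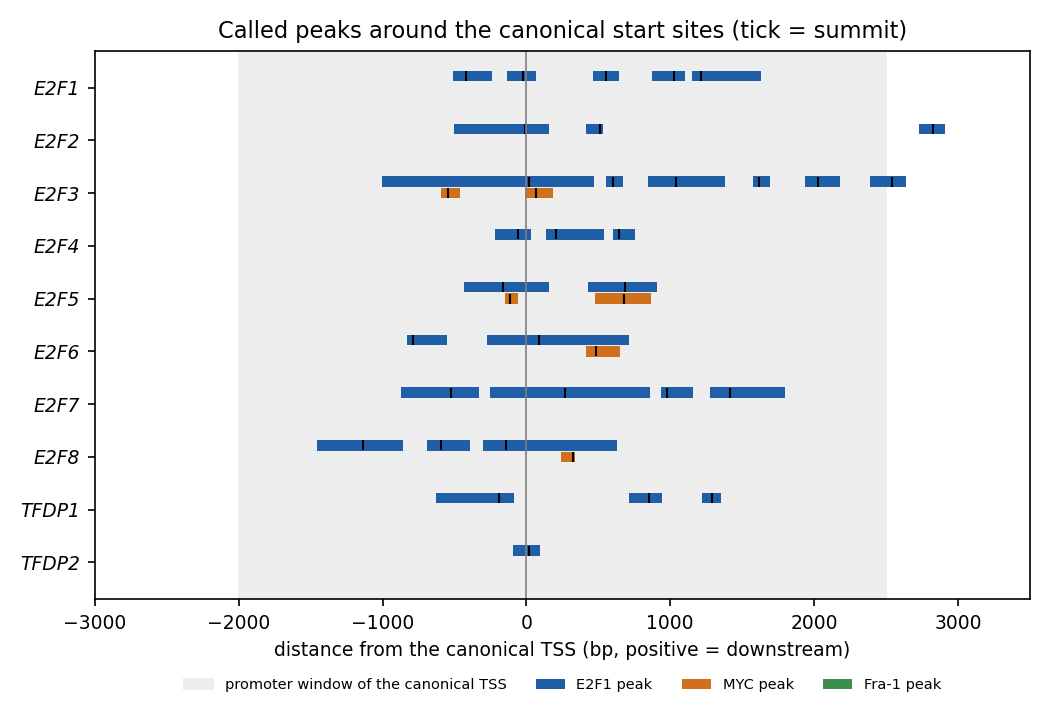
Called peaks of E2F1 (blue), MYC (orange) and Fra-1 (green, none present) from 3 kb upstream to 3.5 kb downstream of the canonical TSS of each member, in the direction of transcription. Bars span the peaks, black ticks mark summits, and the grey band is the promoter window. Each gene has a blue bar at or next to the TSS, E2F3 has a run of 6 blue bars, and every orange bar lies under a blue one.

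MYC, which activates growth genes through E-boxes, was found at 4 members. Promoter peaks of MYC were called at E2F3, E2F5, E2F6 and E2F8, against 17.8% of protein-coding genes, and at neither E2F1 nor E2F2. The strongest was at E2F5, in intron 1 with its summit 679 bp downstream of the canonical TSS, a pileup of 16 and a fold enrichment of 10.4 (6.21 to 16.5). It ranked above the strongest peak of 85.2% of coding genes with a MYC promoter peak. A second E2F5 peak of 7.25 lay 115 bp upstream of the TSS. E2F8 had 1 MYC peak of 7.02 (3.795 to 12.09) in the untranslated part of exon 1. E2F3 had 2 MYC peaks, of 6.14 (3.32 to 10.6) at 69 bp downstream and 5.64 at 544 bp upstream of the TSS. The MYC peaks of E2F3 and E2F5 also lay in promoter windows of annotated genes that are not protein-coding. The E2F6 peak of 5.69 (2.996 to 10.02) lay in intron 1, and its −log10 q of 4.20 was below 5, so that a cutoff of 5 left 3 of the 4 members, against 12.7% of coding genes.

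At the other 6 members no MYC peak was called in the promoter, the gene body or the 10 kb flanks, where 25% of coding genes had one. The MYC peaks present had scaled pileups of 10 to 16. The Poisson intervals of the strongest peak at each of the 4 members overlapped, so that no order among them can be drawn. All 6 MYC peaks of the family overlapped an E2F1 peak, as did 96.1% of all MYC peaks. In turn, 5 of the 31 E2F1 promoter peaks overlapped a MYC peak, against 13.7% of all E2F1 promoter peaks, and 0 of the 31 overlapped a Fra-1 peak, against 13.4%. The count of 0 goes with the absence of Fra-1 peaks from the 10 promoters, described below, and is not a separate result. The E2F1 and MYC summits were 10 and 47 bp apart at E2F5 and 50 bp apart at the E2F3 start site. They were 398 bp apart at E2F6, 461 bp apart at E2F8 and 563 bp apart at the upstream E2F3 peak. The strongest E2F1 peaks at the members with MYC were 57.0, 38.6, 25.7 and 16.0, and at the others 46.6, 24.6, 19.2, 13.6, 11.5 and 6.95, so that the ranges overlap. Over coding genes with an E2F1 promoter peak, the median was 32.1 for 3578 genes with a MYC promoter peak and 18.5 for 8743 without.

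An E-box lay within 50 bp of 2 of the 6 MYC summits of the family, and of 16.8% of all MYC summits. The window of 101 bases around the E2F6 summit, in intron 1 (chr2:11605753-11605853, minus strand, GRCh37), and 29 bases around the E-box of the E2F8 peak (chr11:19262203-19262231, minus strand) show it in capitals.
E2F6: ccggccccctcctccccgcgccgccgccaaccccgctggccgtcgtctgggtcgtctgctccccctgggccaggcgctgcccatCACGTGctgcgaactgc
E2F8: ctgagcctgtgCACGTGtgtgtaagggga
The E-box was centred 36.5 bp from the MYC summit at E2F6 and 46.5 bp at E2F8. Another E-box in E2F6 was centred 9.5 bp from the strongest E2F1 summit, outside the MYC peak. An E-box also lay 47.5 bp from an E2F1 summit upstream of the E2F1 gene, where no MYC peak was called. At E2F3, an E-box lay 38.5 bp from the summit of an E2F1 peak in intron 1 that overlapped no MYC peak. In all, 3 of the 43 E2F1 summits of the family had an E-box within 50 bp, against 2.56% of all E2F1 summits.

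Fra-1 was absent from all 10 promoters in the called list, against 13.2% of protein-coding genes with a Fra-1 promoter peak. Read against this share, the count is near the background and is not a result about the family. Fra-1 peaks were found further away, at 4 members, and 33.5% of coding genes had a Fra-1 peak in the gene body or 10 kb flanks, so that this count is near the background as well. The strongest, at E2F8, was in intron 6 with its summit 7881 bp downstream of the canonical TSS, a pileup of 33 and a fold enrichment of 11.8 (8.25 to 16.5). E2F7 had a Fra-1 peak in intron 9, 33740 bp downstream of the TSS, with a pileup of 38 and a fold enrichment of 9.82 (7.02 to 13.4). At E2F2 the peak was 8761 bp upstream of the TSS and had 8.18 (4.31 to 14.4). TFDP2 had 2 Fra-1 peaks, one of 6.86 in intron 10 and one of 6.71 past the end of the gene.

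Of these 5 Fra-1 peaks, 4 overlapped an E2F1 peak, with summits 5 bp apart at E2F8, 12 bp at E2F2, 34 bp past the end of TFDP2 and 58 bp at E2F7. Over all Fra-1 peaks 61.5% overlapped an E2F1 peak, and outside promoter windows 56.6%. Of the 43 E2F1 peaks of the family, 4 overlapped a Fra-1 peak, against 28.3% of all E2F1 peaks. The E2F1 peaks there had a fold enrichment of 8.67 at E2F8, 10.9 at E2F2, 10.8 at TFDP2 and 3.97 at E2F7. The intron 10 peak of TFDP2 was the Fra-1 peak without E2F1, and the nearest E2F1 summit was 19697 bp away. No MYC peak overlapped any of the 5.

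The AP-1 motif, the binding site of Fra-1 with its JUN partners, lay within 50 bp of 3 of these 5 summits and of 53.3% of all Fra-1 summits. The 101 bases around each of the 3 summits are shown on the strand of the gene with the motif in capitals, at chr12:77425559-77425659 for E2F7, chr11:19254561-19254661 for E2F8 and chr3:141678776-141678876 for TFDP2 (all minus strand, GRCh37).
E2F7: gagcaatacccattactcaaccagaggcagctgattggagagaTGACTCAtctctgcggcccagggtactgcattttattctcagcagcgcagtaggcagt
E2F8: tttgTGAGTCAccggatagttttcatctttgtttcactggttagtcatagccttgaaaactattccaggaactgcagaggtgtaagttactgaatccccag
TFDP2: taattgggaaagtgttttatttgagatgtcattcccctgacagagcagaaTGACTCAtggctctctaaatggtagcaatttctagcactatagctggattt
The motif was centred 4 bp from the summit at E2F7 and 3 bp at TFDP2, but 43 bp at E2F8. The E2F motif was within 50 bp of none of the 5 Fra-1 summits, where it lay at 0.347% of all Fra-1 summits.

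Beyond the promoters, 12 of the 43 E2F1 peaks lay in gene bodies or flanks. Of these 12 peaks, 7 were in a promoter window of another annotated gene, 6 of them of a protein-coding gene. They included 4 peaks downstream of the E2F1 gene, of 5.74 to 10.9, in windows of NECAB3 and partly of ACTL10, and 1 peak of 22.2 past the end of E2F5 in windows of RBIS and CA13. Proximity alone therefore does not assign them to the family. The strongest of the 5 peaks with no other start site nearby lay past the end of TFDP1, with its summit 63011 bp downstream of the canonical TSS, a pileup of 31 and a fold enrichment of 22.4 (15.5 to 31.5). No MYC or Fra-1 peak overlapped it. The AP-1 motif lay within 50 bp of 1 of the 12 distal E2F1 summits, at E2F8. This peak was among the 5 outside the promoter windows of every gene. Over all E2F1 summits outside promoter windows the share was 26.2%. The other 7 lay in promoter windows, where the share over all E2F1 summits was 5.56%.

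This TFDP1 peak was the exception among the distal ones, because an E2F motif lay next to its summit. The 61 bases around the summit (chr13:114302049-114302109, plus strand, GRCh37) hold the motif in capitals, centred 6.5 bp from the summit.
TFDP1: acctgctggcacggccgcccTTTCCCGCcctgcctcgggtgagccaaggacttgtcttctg
Over all 43 E2F1 peaks of the family, 4 had the E2F motif within 50 bp of the summit, at E2F1, E2F2, E2F5 and this site, against 1.68% of all E2F1 summits. Of the 31 promoter peaks it was 3, against 2.1%. Within 100 bp there were 7, with E2F3, E2F8 and the TFDP1 promoter added, against 2.70% of all E2F1 summits. E2F3 and TFDP1 thus had the motif 68.5 and 72.5 bp from the summit, beyond the narrower limit.

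Peaks were also counted per length, since long genes have more sequence to hold them. Over 720 kb searched for the family there were 5.97 E2F1 peaks per 100 kb, against 2.64 over all protein-coding genes searched in the same way. For MYC the values were 0.833 and 0.456 per 100 kb, and for Fra-1 0.695 and 0.772. TFDP2, the longest member at 205117 bp, had 2 E2F1 and 2 Fra-1 peaks, and E2F4, the shortest at 6764 bp, had 4 E2F1 peaks.

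Other genes of the pathway were counted for comparison in 3 lists, and MYBL2 is in both the DREAM and the target list. The first list held 9 RB-family, DREAM and MuvB genes, which, apart from MYBL2, bind E2F or act with E2F4 at repressed promoters. Of these 9 genes, 9 had an E2F1 promoter peak, 3 a MYC and 1 a Fra-1 promoter peak. Of 22 textbook E2F target genes, for DNA replication, nucleotide synthesis and the cell cycle, 22 had an E2F1, 12 a MYC and 4 a Fra-1 promoter peak. Over protein-coding genes the shares were 61.3%, 17.8% and 13.2%, so that the Fra-1 counts of both lists are near the background. The median of the strongest E2F1 peak was 41.3 for the target genes, 29.4 for the DREAM and MuvB list and 21.9 for the E2F and DP genes. For the list of E2F6 partners, described below, it was 25.9, and over all coding genes with an E2F1 promoter peak 22.02. MCM3 and MCM7, subunits of the replicative helicase, were the only genes of the 3 lists with promoter peaks of all 3 factors. Over coding genes, 3578 had E2F1 and MYC promoter peaks, of which 2639 had no Fra-1 promoter peak and the rest had all 3. With windows of 1 kb to either side of a TSS, 0 target genes kept a Fra-1 promoter peak, against 9.85% of coding genes. The Fra-1 part therefore depends on the window. MCM3 had a fold enrichment of 48.6 for E2F1, 7.61 for MYC and 8.05 for Fra-1, and MCM7 had 42.5, 6.65 and 8.97.

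Of 11 partners of E2F6 in the PRC1.6 complex, 8 had an E2F1 promoter peak, 1 a MYC and 1 a Fra-1 promoter peak, against 61.3%, 17.8% and 13.2% of coding genes. The 3 without E2F1 were RING1, RYBP and EHMT2. RING1 and EHMT2 lie on chromosome 6 between 28.4 and 33.5 Mb, where 184 protein-coding genes lie and the lists held 0 peaks of any of the 3 factors. On alternative haplotype sequences of chromosome 6, 18 E2F1 peaks were listed. No reading of binding at RING1 and EHMT2 was therefore made, and 8 of the other 9 genes of the list had an E2F1 promoter peak. The 10 family members lie outside this stretch.

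**Figure D4:**
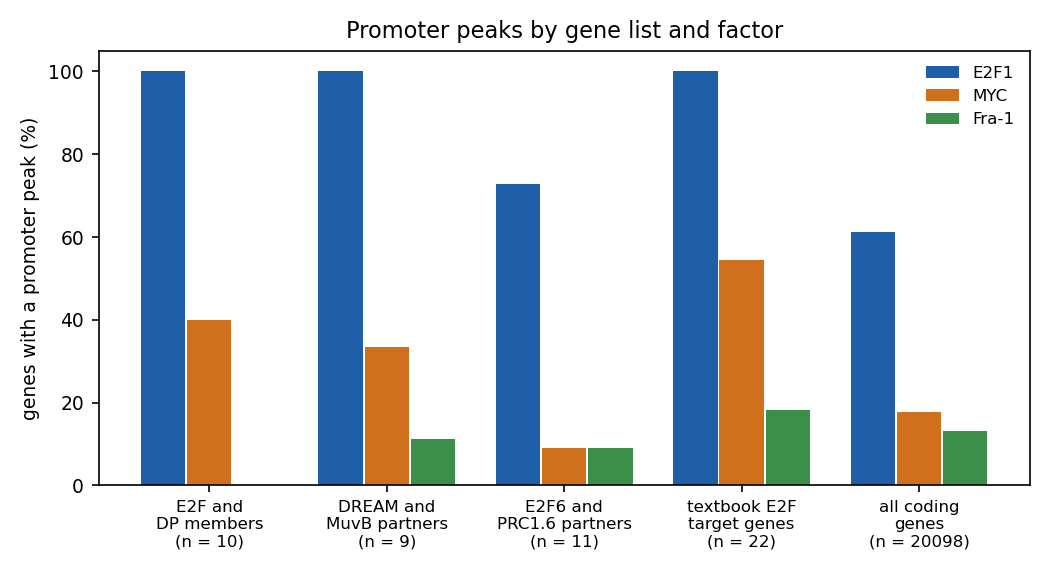
Percent of genes with a promoter peak of E2F1 (blue), MYC (orange) and Fra-1 (green) in the E2F and DP family, 3 lists of related genes and all 20098 protein-coding genes, with the number of genes under each group. Blue bars stand at 100% for the family, the DREAM and MuvB list and the target genes, and the family has no green bar.

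The genes most like each member with both E2F1 and MYC promoter peaks were found from the percentile ranks of the strongest promoter peaks in the 3 libraries, with 0 where no peak was called. For E2F3 they were CAP1, SERP1 and TPRA1, at distances of 0.0877, 0.237 and 0.239 percentile points. For E2F5 they were CDC37, ZNF529 and NACC2, at 1.92, 2.03 and 3.07. For E2F6 they were FDX2 and ENSG00000167807, both at 0.231, and ID3 at 1.15. FDX2 and ENSG00000167807 had identical values, 25.8 for E2F1 and 5.69 for MYC, so they may be scored from the same peaks. For E2F8 they were LRR1, SCD and HSPB6, at 0.449, 1.63 and 1.66. These distances describe peak strength in 3 libraries and nothing else.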

How the data were processed

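Peak lists of the E2F1, MYC and Fra-1 libraries were used. The EZH2 and input libraries had no peak list here, and another factor named in the protocols was not analysed. According to the methods and the file headers, reads were trimmed (Trimmomatic), aligned uniquely to masked hg19 (Bowtie) and stripped of duplicates, after which the authors ran MACS2 (2.0.10.20120913, q-value cutoff 0.01) on each library against input. After filtering, MACS2 kept 12931227 to 23853621 tags per factor and 10758036 for the input. The deposited signal is the fragment pileup at the summit, for which MACS2 scales down the deeper of ChIP and input. The deposited fold enrichment is the ratio of pileup to local input background, with a pseudocount of 1. Significance was deposited as −log10 p- and q-values. Depth differs between libraries, so factors were compared by rank within a list.

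hg19 coordinates were used with GRCh37 and GENCODE 44 mapped to it, and 0 peaks ended past a chromosome. Local background was recovered from pileup and fold enrichment, with an upper bound 1 pileup unit higher because 5724 of 36933 E2F1 peaks otherwise fell below the genome-wide input level and 0 with it. Intervals are 95% exact Poisson intervals of the pileup. The named genes are the 10 members, genes of the 3 lists with peaks of all factors or none of E2F1, and the 3 nearest genes by rank. The members and lists were chosen with earlier results of these data known. RefSeq promoter tables were not used, and 1 upstream sequence is not reported here. Overlap and window functions were tested on simulated data. Scripts ran under Python 3.11.15 with scipy 1.17.1, pandas 2.3.3, pysam 0.24.0, matplotlib 3.10.9 and numpy 2.4.6.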

Additional observations from a re-analysis of the deposited data

How the results depend on the processing

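Of 110 alternative values for 32 results, 96 stayed within 1.5 times the reported count or kept the same peak, and 14 moved. With equal numbers of peaks, E2F1 promoter or locus peaks were left at 3 members and Fra-1 locus peaks at 2, because fewer peaks were admitted. E2F1 promoter peaks were left at 4 of 9 genes of the DREAM and MuvB list and at 4 of 11 E2F6 partners. The share of coding genes was then 25.7%. Fra-1 promoter peaks were left at 0 of 11 E2F6 partners and 1 of 22 target genes, near the share of 3.42% of coding genes. For locus peaks at equal numbers, the share of coding genes was not computed. With windows of 1 kb, Fra-1 promoter peaks were found at 0 genes of the DREAM and MuvB list and at 0 target genes. The share of coding genes was then 9.85%. The E2F1 peak at E2F7 had a fold enrichment of 12.6 when chosen by pileup. E2F1 peaks overlapping MYC numbered 5, but 1 with reciprocal overlap of 50% and 3 with summits within 250 bp. The E2F motif was near 7 E2F1 summits within 100 bp (2.70% of all) and in 8 peaks at any position (4.96% of all). The E2F1 count of 10 members held for cutoffs of −log10 q or fold enrichment of 5, windows of 1 kb, summits in the window, protein-coding transcripts and 1 canonical TSS, under which the share of coding genes was 57.3% to 61.1%.

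No paired analysis was possible because each factor had 1 library and no replicate numbers. No result met a rule for a closer look, since no group had more than 1 library. The scaled MYC pileups of 10 to 16 at the members stand for more sequenced fragments, since the MYC library was scaled by 0.451 to the shallower input.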
